A study of Mus musculus with 2 samples.

Results

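The genes described here are the nuclear genes for subunits of the mitochondrial respiratory chain, complexes I to V, in purified mouse collecting duct cells with and without Gata2. They were chosen by name: every probe on the array that is not a control and whose gene name begins with Nduf followed by a, b, c, s or v and a digit, with Uqcr, with Cox and a digit from 4 to 8, or with Atp5, together with Sdha, Sdhb, Sdhc, Sdhd and Cyc1. This rule took 116 of 41174 probes and 85 of 30197 gene names. Complex I had 36 of these genes, complex II 4, complex III 9, complex IV 19 and complex V 17. The rule used no measured value.

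The respiratory chain sits in the inner mitochondrial membrane. Complex I (NADH dehydrogenase) and complex II (succinate dehydrogenase, also an enzyme of the citric acid cycle) pass electrons to ubiquinone, complex III (the cytochrome bc1 complex) passes them on to cytochrome c, and complex IV (cytochrome c oxidase) gives them to oxygen. Complexes I, III and IV pump protons, and complex V (ATP synthase) lets them flow back and makes ATP. All complexes but complex II also hold subunits made from mitochondrial DNA. In the collecting duct, the intercalated cells that secrete acid or bicarbonate are known for their many mitochondria, while the principal cells that take up sodium and water hold fewer.

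The study compared wild-type (WT) mice with Gata2 conditional knockout (CKO) mice whose genotype is labelled Gata2flox/-::Pax8-rtTA::Tet-Cre. In these mice doxycycline turns on Cre through a transactivator driven by Pax8, a gene of renal tubule cells, so that deletion is not limited to the collecting duct, and the allele that is not floxed is null in every cell. The WT label names no transgene. Mice of both groups were 8 weeks old, of mixed sex, and had doxycycline for 4 weeks from 4 weeks of age. Collecting duct cells were purified on magnetic beads with DBA (Dolichos biflorus agglutinin), which binds sugars on the surface of collecting duct epithelium. The design gives 3 mice per genotype, but each genotype has 1 single-colour microarray, whose name describes a mixture of samples. Pooling is not stated outright.

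Values are the processed signal of the scanner software, in linear units, or its log2 after each array was set to its own 75th percentile signal (WT 314, CKO 250.1). Differences are CKO minus WT on this log2 scale unless another scale is named. A gene took the value of its brightest probe that was well above background on at least 1 array. With 1 array per genotype, differences have no replicate check and are given without tests or p-values. The error printed after a difference is the spot error of the scanner software over both arrays. It was 0.20 for nearly every bright gene whatever the probe, so it is not a spread measured on each spot. Repeated spots of bright probes differed between the arrays with a smaller SD, 0.03. Both cover spots only, not mice, purification or labelling.

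Gata2 itself went in the direction of the labels: its probes differed by −0.37 ± 0.20 and −0.32 ± 0.20, from 3943 to 2424 and from 3432 to 2194 in signal. Of all genes 12.5% were lower by 20% or more, so these values alone do not check the labels. Whether these probes lie in the deleted part was not analysed here. Cell type markers also differed between the arrays. Beside the counts that follow, 57% of all genes measured were above 0 and 42.1% below. Of 12 intercalated cell markers 11 were above 0 (median 0.73), and their summed level, in multiples of the 75th percentile, was 433 (WT) and 524 (CKO). Of 10 principal cell markers 1 was above 0 (median −0.47), with summed levels of 974 and 820. Of 5 thick ascending limb markers 4 were above 0, with sums of 46.0 and 54.4. Proximal tubule markers had 2 of 10 above 0 (14.6 and 12.1) and distal convoluted tubule markers 1 of 4 (67.6 and 54.3). None of 6 macrophage markers (77.1 and 34.9), 6 endothelial markers (0.731 and 0.464) or 5 measured fibroblast and pericyte markers (6.13 and 3.98) was above 0. In RNA from a mixture of cells, more cells of a type and more RNA per cell cannot be told apart. The part of these shifts in the respiratory chain differences was not tested.

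Nearly all respiratory chain genes were slightly higher on the CKO array once both arrays were set to the 75th percentile. Of the 85 genes, 81 were well above background on both arrays, and the other 4 (Cox4i2, Cox7b2, Cox8b and Cox8c) on neither. The difference was above 0 for 79 of the 81 genes, against 57% of all 18970 genes measured, and below 0 for 2 (Sdhc and Cox6a2), against 42.1%. It lay above the median of all genes for 77 of 81, against 50% by construction. The size was small: the median over the 81 genes was 0.18, a ratio of 1.13, and that over all genes 0.04. A size of 25%, or 0.32 on the log2 scale, was used to count larger differences. Of the 81 genes 8 were at least 25% higher, against 17.5% of all genes, and 0 were lower by 20% or more, the same size downward, against 12.5%. None of them was 2-fold apart, which was so for 1.49% of all genes upward and 2.84% downward. The set was thus shifted as a whole, by little, with few genes far out on either side. For 36 of the 81 the difference was larger than its spot error, against 25% of genes measured on both arrays, and no gene was lower by more than its spot error. That error was close to 0.20 for nearly all of the 81, so this in effect counts differences above 0.20. The 25% includes dim genes, whose spot errors are larger.

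The direction depends on the scaling. Before scaling, the linear signal was higher on the CKO array for 8 of the 81 genes and lower for 73, against 16.1% of genes on both arrays that were higher. With the arrays set to 8 spike-in control transcripts in place of the 75th percentile, 79 of 81 differences fell below 0, where 7.79% of all genes were above 0, and the median of all genes was −0.50. Such a scaling moves every gene by 1 constant, so it leaves the distance from other genes where it was by construction. The excess of a complex's median over the median of all genes was 0.13 for complex I, 0.08 for complex II, 0.24 for complex III, 0.19 for complex IV and 0.12 for complex V by the 75th percentile. Every difference below stands beside the all-gene median of 0.04.

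Among the complexes, complex III had the highest median difference, 0.28 (lowest 0.09, highest 0.37, 9 genes), followed by complex IV at 0.23 (−0.21 to 0.71, 15 genes), complex I at 0.17 (0.04 to 0.39, 36 genes), complex V at 0.16 (0.04 to 0.29, 17 genes) and complex II at 0.12 (−0.09 to 0.17, 4 genes). These ranges overlap for every pair of complexes. Different bright probes of 1 gene, compared within 18 of these genes, differed with an SD of 0.05, and all probes of 24 genes with an SD of 0.11. No test of a difference between complexes was possible. When each gene took the mean of its probes, the order of complexes III and IV turned, with medians of 0.21 and 0.23.

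**Figure D1:**
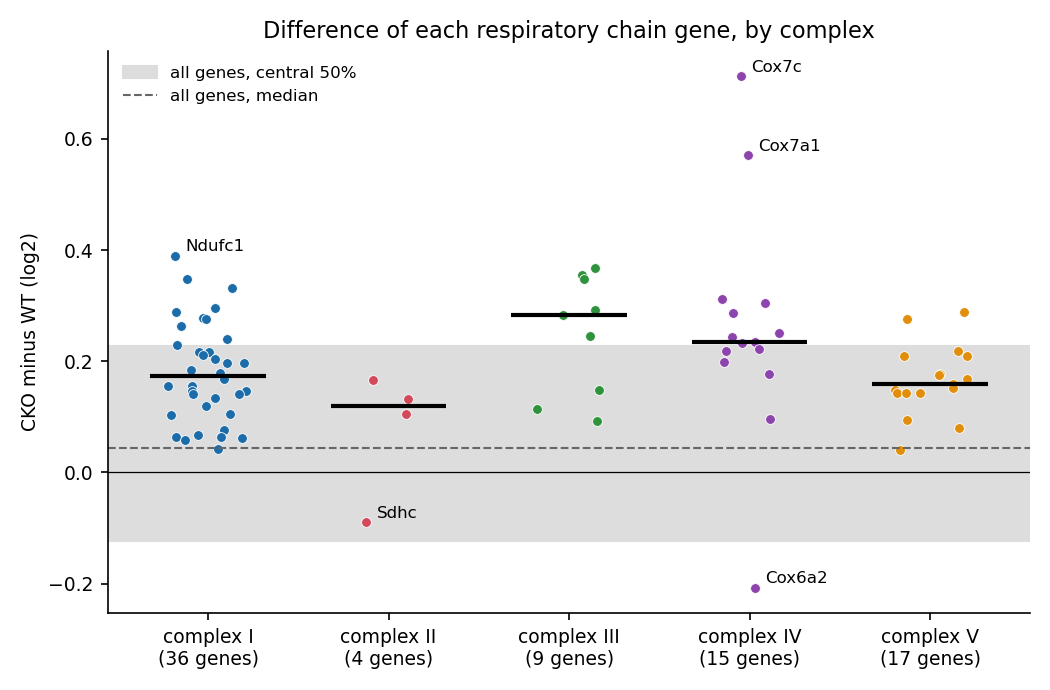
Difference between the CKO and WT arrays (vertical axis, log2) of each of 81 respiratory chain genes, by complex. Points are genes, bars are medians, the dashed line is the median of all genes measured (0.04) and the grey band holds their central 50% (−0.12 to 0.23). Most points lie between the dashed line and 0.40, with Cox7c (0.71) and Cox7a1 (0.57) above and Sdhc (−0.09) and Cox6a2 (−0.21) below 0.

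The respiratory chain genes were among the brightest on the array. The median level on the WT array was 5.56 above the 75th percentile on the log2 scale, against −0.53 for all genes. By complex the median was 5.07 for complex I (2.08 to 7.25), 3.77 for complex II (2.84 to 5.49), 5.61 for complex III (4.40 to 7.05), 6.17 for complex IV (−3.57 to 8.48) and 5.87 for complex V (0.52 to 8.01). Probes bind with different strength, and the level differed between probes of 1 gene with an SD of 2.46, so these levels describe signal and do not rank the genes by transcript number. When the genes on both arrays were split into 5 bins of equal size by signal, 76 of the 81 lay in the brightest. In that bin the median of all genes was 0.05, 61.8% of genes were above 0 and 9.39% were at least 25% higher. The median of the respiratory chain genes, 0.18, thus lay above that of other bright genes by about as much as above that of all genes. Across the 81 genes the Pearson correlation of WT level with difference was 0.39, and across the 76 in the brightest bin 0.25. The points share both arrays, and the figures are descriptions without a test.

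**Figure D2:**
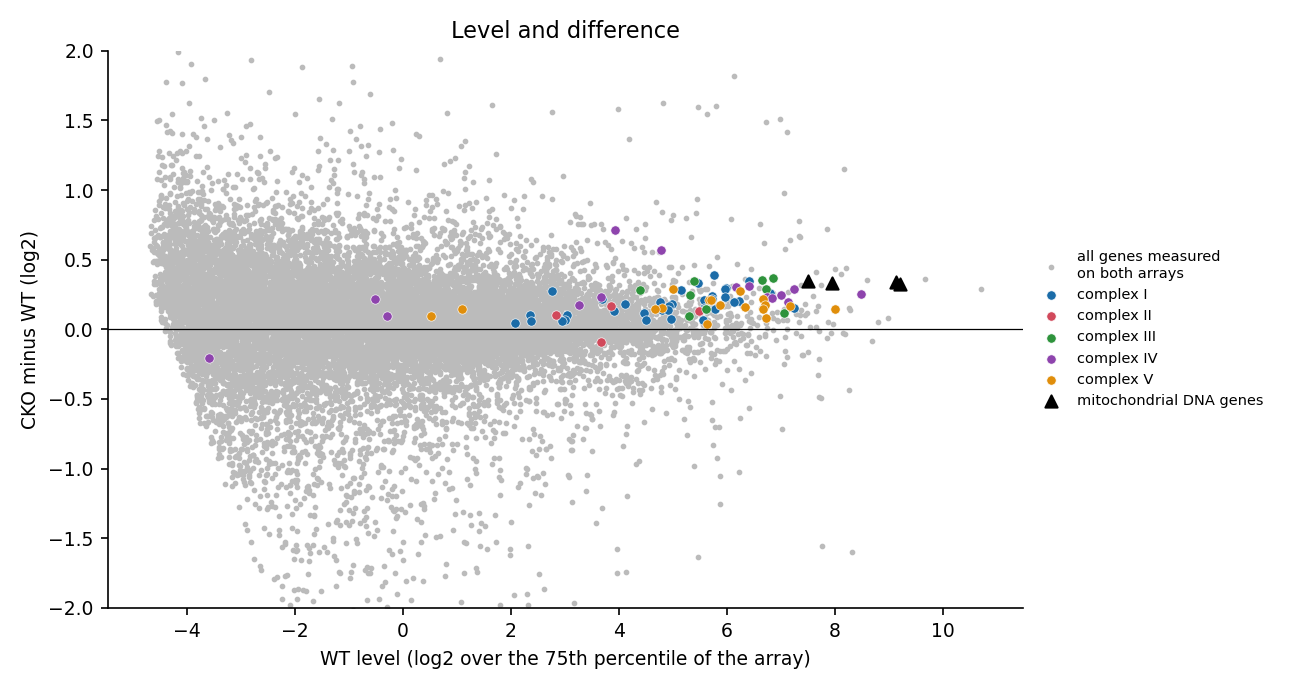
WT level (horizontal axis, log2 over the 75th percentile of the array) against the difference between the CKO and WT arrays (vertical axis, log2). Grey points are all genes measured on both arrays, 117 of which lie beyond the axis, coloured points are respiratory chain genes by complex, and triangles are genes of mitochondrial DNA. The coloured points gather at the bright end just above 0.

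Complex I is the largest of the complexes, with a catalytic core shared with bacteria and many accessory subunits around it. All 36 genes were above 0, against 57% of all genes, and 3 were at least 25% higher, against 17.5%. In the brightest signal bin these shares were 61.8% and 9.39%. The 7 nuclear core genes, of the Ndufs and Ndufv families, which between them carry the flavin and the iron-sulfur clusters, had a median of 0.14 (0.06 to 0.28), and the 29 others a median of 0.18 (0.04 to 0.39). Ndufs3, of the module that reduces ubiquinone, was at 0.28.

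The highest difference in complex I was that of Ndufc1, an accessory subunit of the membrane arm. Its signal went from 17017 (WT) to 17749 (CKO), a difference of 0.39 ± 0.20. Its other probe, which spans an exon junction by its coordinates, went from 7798 to 8352, or 0.43, so both probes gave a like value. Ndufa5, of the peripheral arm, went from 26603 to 26943 (0.35 ± 0.20), and Ndufb7, of the membrane arm, from 13931 to 13946 (0.33 ± 0.20). For each of these genes the linear signal was nearly the same on both arrays, and the difference comes from the lower 75th percentile of the CKO array.

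At the other end, Ndufb5, an accessory subunit of the membrane arm, went from 1332 to 1091, a difference of 0.04 ± 0.20. Ndufv3, an accessory subunit of the NADH-binding module, went from 1634 to 1353 (0.06 ± 0.20), and its other probes gave −0.00 and 0.10. Ndufv2, a core subunit of the same module with an iron-sulfur cluster, went from 2421 to 2011 (0.06 ± 0.20). These differences lay close to the all-gene median. Ndufa4, once counted with complex I and now known as a subunit of complex IV, went from 14842 to 12349 (0.06 ± 0.20), which is below the median of either complex.

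By family, the 13 Ndufa genes had a median of 0.16, the 10 Ndufb genes, all of the membrane arm, 0.21, the 8 Ndufs genes 0.16, the 3 Ndufv genes 0.06 and the 2 Ndufc genes 0.27. The Ndufv genes (0.06 to 0.08) lay below every Ndufs gene (0.11 to 0.28) and every Ndufc gene (0.16 to 0.39), and within the range of the Ndufb genes (0.04 to 0.33). Ndufv2 and Ndufv3 also lay just below the lowest Ndufa gene, Ndufa4, where the 3 values round to 0.06.

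Complex II had the smallest shift, and 1 of its 4 genes was lower on the CKO array, against 42.1% of all genes. Sdha, the flavoprotein that oxidises succinate, went from 2244 to 1922, a difference of 0.11 ± 0.20. Its other probes gave 0.02 and 0.22, the latter from a dim probe of 109 on the WT array. Sdhb, the iron-sulfur subunit, went from 4574 to 4085 (0.17 ± 0.20), and Sdhd, 1 of the membrane anchors, from 14090 to 12287 (0.13 ± 0.20). Sdhc, the other membrane anchor, went from 3993 to 2986, a difference of −0.09 ± 0.20. All 4 sizes were within the spot error. The anchors Sdhc and Sdhd, which together bind heme and ubiquinone, lay on opposite sides of 0, each measured by 1 probe.

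Complex III had all 9 genes above the all-gene median, against 50% of all genes. At least 25% higher were 3 of them, Uqcrq, Uqcr11 and Uqcrb, against 17.5% of all genes. Uqcrq went from 36363 to 37333 (0.37 ± 0.20), Uqcr11 from 31650 to 32216 (0.36 ± 0.20) and Uqcrb from 13189 to 13358 (0.35 ± 0.20). The linear signal of all 3 was higher on the CKO array, which was so for 8 of the 81 genes in all. The Uqcrb probe shares at least 20 bases with a probe that has no gene name in the file and gave 0.35, so these probes may report the same transcript. Uqcrq has another probe, of 26.3 on the WT array, which gave −0.20, and which takes no part in the value above.

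The lowest in complex III were Cyc1, the cytochrome c1 that hands electrons to cytochrome c, from 12424 to 10545 (0.09 ± 0.20), Uqcrh, the hinge protein beside it, from 41779 to 35982 (0.11 ± 0.20), and Uqcrc2, a core protein, from 15377 to 13567 (0.15 ± 0.20). Uqcrh has another probe that gave 0.10. Between these ends lay Uqcr10 (0.29), the core protein Uqcrc1 (0.28, its other probe 0.14) and Uqcrfs1 (0.24), the Rieske iron-sulfur protein. Of the carriers of electrons, the Rieske protein and cytochrome c1 thus differed by 0.24 and 0.09, a gap smaller than the spot error.

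Complex IV had the widest spread, and the largest differences of all members: Cox7c and Cox7a1. Cox7c, a small subunit found in all tissues, went from 4789 to 6245, a difference of 0.71 ± 0.20, and Cox7a1, the isoform of subunit 7a of heart and skeletal muscle, from 8640 to 10209, a difference of 0.57 ± 0.20. Each has 1 probe, and the linear signal of both was higher on the CKO array. Both probes span an exon junction by their coordinates. The array also holds a probe to a predicted transcript, LOC100504157, which is named as similar to Cox7c, and which went from 27563 to 25179, or 0.20. It lies on mm9 at chr10:95871497-95871556, minus strand, and the Cox7a1 probe at chr7:30970337-30970948, plus strand. These probes are shown because the largest difference of isoforms and the doubt about Cox7c rest on them.
Cox7a1 probe: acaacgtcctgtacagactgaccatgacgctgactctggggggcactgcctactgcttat
LOC100504157 probe: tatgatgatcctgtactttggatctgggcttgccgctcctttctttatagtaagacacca
The value of Cox7c is uncertain to that extent: a probe to a close copy was brighter and gave a difference near that of the other complex IV genes. Without Cox7c and Cox7a1 the median of complex IV was 0.23 as well.

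Of the other complex IV genes, Cox7b, a subunit found in all tissues, went from 26841 to 26504 (0.31 ± 0.20). At the low end lay Cox6a2 (−0.21 ± 0.31), Cox6b2 (0.10 ± 0.21) and Cox7a2l (0.18 ± 0.20, from 3036 to 2733), a factor that joins complexes III and IV into supercomplexes and is named after subunit 7a. Cox5a (0.24), Cox5b (0.22) and Cox6c (0.23) lay near the median of the complex. Cox4nb (0.22, from 220 to 203) is taken in by its name alone: its present symbol is Emc8, a subunit of a complex of the endoplasmic reticulum, and without it the median of complex IV was 0.24.

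Several subunits of complex IV come as a common form and a form of particular tissues, and of these tissue forms Cox7a1 was the only one with a bright signal in these cells. For subunit 4, the common Cox4i1 went from 43880 to 40088 (0.20 ± 0.20), and Cox4i2, known from lung and induced by low oxygen, was not well above background on either array (8.47 and 6.08). For subunit 6a, the common Cox6a1 went from 112327 to 106389 (0.25 ± 0.20), and Cox6a2, of heart and skeletal muscle, was dim, from 26.4 to 18.2. For subunit 6b, the common Cox6b1 went from 4013 to 3755 (0.23 ± 0.20), and Cox6b2, of testis, from 256 to 217.

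For subunit 7a, the common Cox7a2 went from 22592 to 22204 (0.30 ± 0.20), and its other probe gave 0.38. The difference of the muscle form Cox7a1, at 0.57, was above that of both probes of the common form. For subunits 7b and 8, Cox7b2 (2.97 and 2.84), Cox8b (2.69 and 5.98) and Cox8c (2.52 and 2.38) were not well above background, while the common Cox8a went from 47608 to 46218 (0.29 ± 0.20). The lowest signals well above background were 12.0 and 11.6, and negative controls had medians of 2.67 and 2.53. Forms not well above background have no difference that these arrays can measure.

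**Figure D3:**
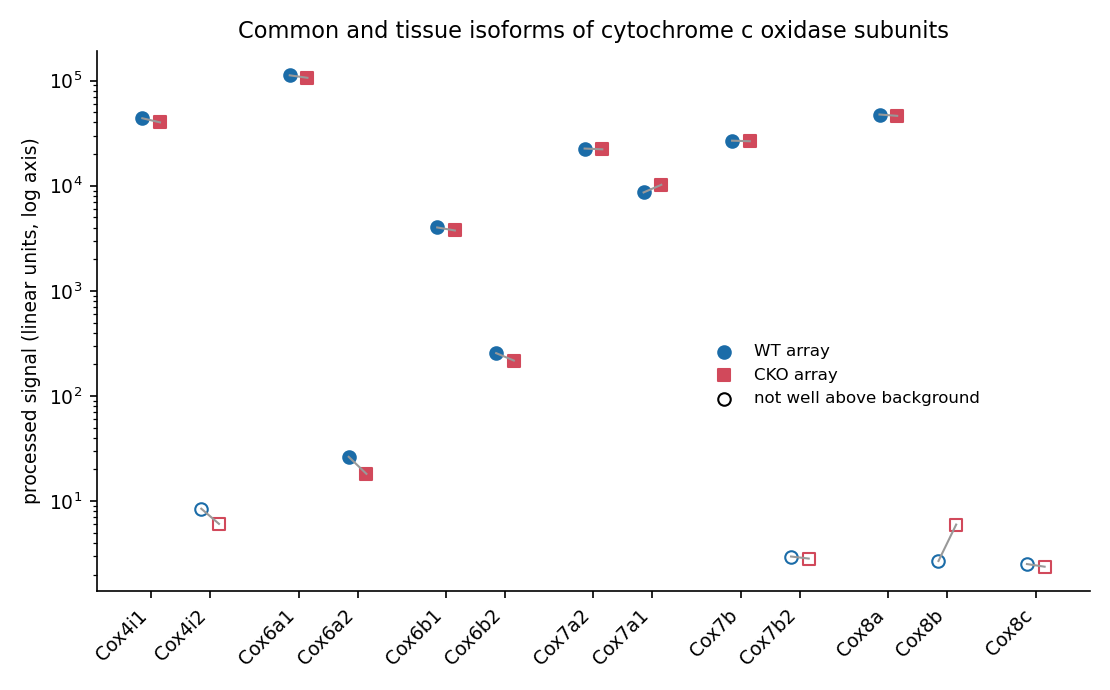
Processed signal (vertical axis, linear units on a log axis) of common and tissue isoforms of cytochrome c oxidase subunits on the WT array (circles) and the CKO array (squares). Open symbols were not well above background, and grey lines join the arrays. The common forms lie between 3755 and 112327, and of the tissue forms Cox7a1 (8640 and 10209) comes near them, while 4 are open. Signals of different probes are not on 1 scale of transcript number.

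Complex V had all 17 genes above 0, none of them at least 25% higher, and the narrowest spread among the complexes (SD 0.06). Of all genes 57% were above 0 and 17.5% at least 25% higher. The 5 genes of the F1 head, which makes ATP, had a median of 0.15 (0.14 to 0.22), the 3 genes of the c ring, which turns as protons pass and whose genes encode the same mature protein, a median of 0.17 (0.15 to 0.21), and 7 genes of the stalk and membrane part a median of 0.18 (0.04 to 0.29). The head, the ring and the rest thus lay close together.

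The highest in complex V were Atp5k, Atp5j and Atp5e. Atp5k, subunit e, went from 10053 to 9774 (0.29 ± 0.20), Atp5j, coupling factor 6, from 23955 to 23093 (0.28 ± 0.20), and Atp5e, the epsilon subunit of F1, from 32022 to 29665 (0.22 ± 0.20). The file places the Atp5k probe on chromosome Y, while the gene is on chromosome 5 in RefSeq, so a copy may be read in its place. The lowest were Atp5l, subunit g, from 15642 to 12801 (0.04 ± 0.20), Atp5h, subunit d of the stalk, from 33198 to 27931 (0.08 ± 0.20, its other probe 0.11), and Atp5s (0.09 ± 0.20, from 451 to 384). Subunits e and g, which sit together in the membrane and help ATP synthase to form dimers, were at the opposite ends of the complex.

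The catalytic beta subunit Atp5b went from 80748 to 70919 (0.14), and its other probes gave 0.03 and 0.13. Atp5s and Atp5sl (0.14), now named Dmac2l and Dmac2, are not held to be structural subunits, and without them the median of complex V was 0.17.

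Where a gene had several probes, they mostly pointed the same way. Of the 116 probes, 110 were well above background on both arrays, and 106 of these were above 0, beside 57% of all genes measured. The shares over all probes and over all genes with several probes were not counted. Of the 24 genes with several such probes, 22 had all of them above 0, and Uqcrq and Ndufv3 were the exceptions. Some probes of the same gene overlap in position, such as those of Ndufs6, Ndufa11, Ndufa8 and Cox7a2, and are not separate readings. The shift of this set was seen with many probes. All of them come from the same pair of RNA samples and are not replicates of the genotypes.

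Mitochondrial DNA encodes some of the core subunits of all complexes but complex II, and the probes to it differed by more than the median of the nuclear genes. ND4, of complex I, went from 77568 to 77821 (0.33 ± 0.20), and CYTB, of complex III, from 177277 to 178622 (0.34 ± 0.20). COX2, of complex IV, went from 185849 to 185466 (0.33 ± 0.20), and ATP6, of complex V, from 57204 to 58035 (0.35 ± 0.20). All 4 had nearly the same linear signal on both arrays and a median of 0.34. The file places the COX2 and ATP6 probes on chromosome 1, where the nuclear genome holds a copy of mitochondrial DNA, and the ND4 and CYTB probes on the mitochondrial genome. The value of these bright probes depends on the normalization: with quantile normalization the median was 0.05.

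Most other lists of mitochondrial genes had medians between those of the respiratory chain and all genes. The regulators of mitochondrial genes described below were level with the respiratory chain, both at 0.18. The 43 measured assembly factors, which build the complexes and are not part of them, had a median of 0.11 with 32 above 0. At least 25% higher were 2 of them, Coa7 (0.43, from 242 to 259) and Ttc19 (0.38, from 163 to 168), both below the 75th percentile of their array on the WT array. Of all genes 17.5% were at least 25% higher, which stands beside each such count in the lists below. Ttc19 is known as a factor of complex III, and Coa7 of complex IV. The lowest were Acad9 (−0.12) and Ndufaf4 (−0.12), both assembly factors of complex I.

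Of 18 genes of the citric acid cycle and pyruvate dehydrogenase, which supply the chain with NADH and succinate, 17 were above 0 (median 0.15). Ogdh, of the oxoglutarate dehydrogenase complex, was at 0.34, while Idh2, the isocitrate dehydrogenase that makes NADPH, was at −0.06. Of 21 genes of electron carriers and of exchange across the inner and outer membrane 13 were above 0 (median 0.07), against 57% of all genes. None was at least 25% higher. Slc25a4, an exchanger of ADP and ATP, was at 0.31, Vdac1, the outer membrane pore, at 0.29, and Cycs, cytochrome c, at 0.28, which is close to complexes III and IV between which it carries electrons. Atpif1, the inhibitor of ATP synthase, was at −0.08, below every complex V gene.

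Of 23 genes of protein import 20 were above 0 (median 0.11), with Tomm7 highest at 0.35 and Tomm6, another small subunit of the same outer membrane pore, lowest at −0.16. Of 78 genes of the mitochondrial ribosome 61 were above 0 (median 0.11, 3 at least 25% higher). In contrast, 42 of 77 genes of the cytosolic ribosome were above 0 (median 0.01), close to the 57% of all genes. The cytosolic ribosome genes had bright probes as well, with summed levels of 5592 and 5742 times the 75th percentile. Of 19 gene names of glycolysis 14 were above 0 (median 0.06). They include both Pkm (0.02) and Pkm2 (0.30), an older name of the same gene. Aldoc (0.59) and Hk2 (0.54) were at least 25% higher, and the Hk2 probe was dim, from 43.9 to 50.9.

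Of 21 regulators of mitochondrial genes 15 were above 0 (median 0.18). Ppargc1a, the coactivator known as PGC-1 alpha, went from 4821 to 4587 (0.26). Nrf1, the factor NRF-1 that binds promoters of many respiratory chain genes, was at 0.34, from 67.6 to 68.1, Slirp, which stabilises mitochondrial mRNA, at 0.33, and Tfam, which packs and transcribes mitochondrial DNA, went from 27236 to 27208, also 0.33. Yy1, another factor with sites in such promoters, was at −0.34, from 890 to 558. Gabpb1, a subunit of the Ets factor GABP, was at −0.22 ± 0.23, from 53.9 to 36.8. The factors named here that are known to bind respiratory chain promoters lay on both sides of 0, and the Nrf1 and Gabpb1 probes were dim.

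**Figure D4:**
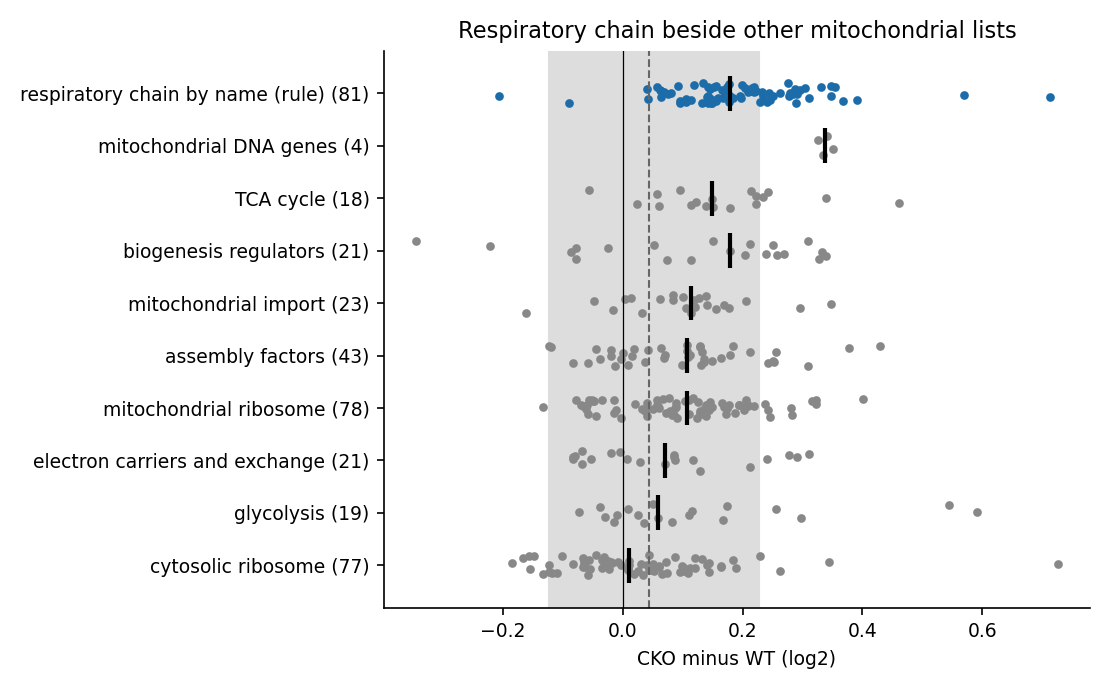
Difference between the CKO and WT arrays (horizontal axis, log2) of respiratory chain genes and of other gene lists, with the number of gene names measured in parentheses. Points are genes, black bars medians, the dashed line is the median of all genes (0.04) and the grey band their central 50%. The respiratory chain has its median at 0.18, the cytosolic ribosome at 0.01, and the 4 genes of mitochondrial DNA lie together at 0.33 to 0.35.

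Promoter sequence, taken from RefSeq on GRCm38.p6 as the 250 bases before to 50 bases after the start of each gene, was found by symbol for 69 of the 85 genes. The window was searched on both strands for 5 motifs, none of which contains another. The NRF-1 motif, whose letters are in capitals in the last sequences below, was found in 17 of the 69 windows, or 24.6%, against 5.19% of 27025 genes. By complex it was in 7 of 32 windows of complex I, 2 of 3 of complex II, 1 of 5 of complex III, 1 of 13 of complex IV and 6 of 16 of complex V. The YY1 motif was found in 6 windows, or 8.70%, against 0.995% of all genes, the ERR motif TCAAGGTCA in 2, or 2.90%, against 0.466%, and the Ets motif CCGGAAGT in 5, or 7.25%, against 4.31%. The GATA motif AGATAA was found in 6 windows, or 8.70%, against 12.7% of all genes. Other forms of the GATA site, such as TGATAA, were not searched, so these counts cover AGATAA only. A match is a string of letters and does not show a site in use.

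The median difference of genes with and without a motif was compared as a description. The 17 genes with the NRF-1 motif had a median difference of 0.17, and the 50 measured genes without it 0.19. The GATA motif AGATAA is a form of the pattern that the deleted factor is known to bind. For it the medians were 0.20 for 6 genes (Atp5g1, Atp5g3, Cox7a1, Cox7c, Ndufa12 and Ndufc2) and 0.18 for 61. The gap was widest for the Ets motif, with 0.28 for 5 genes and 0.18 for 62. It was 0.14 for 6 genes with the YY1 motif and 0.18 for 61 without it, and 0.15 for 2 genes with the ERR motif and 0.18 for 65 without it. No gap was tested. Both genes with the largest differences, Cox7a1 and, with the doubt given above, Cox7c, were among the 6 with the GATA motif. Their promoters are shown for that reason, with the GATA motif in capitals, TTATCT being its reverse complement. Cox7a1 is at chr7:30183921-30184220, plus strand, and Cox7c at chr13:86046746-86047045, minus strand, both written in the direction of the gene. Beside them stand Cox6a1, at chr5:115348909-115349208, minus strand, the member with the brightest probe, and Uqcrc1, at chr9:108936398-108936697, plus strand, with the NRF-1 motif in capitals.
Cox7a1 promoter: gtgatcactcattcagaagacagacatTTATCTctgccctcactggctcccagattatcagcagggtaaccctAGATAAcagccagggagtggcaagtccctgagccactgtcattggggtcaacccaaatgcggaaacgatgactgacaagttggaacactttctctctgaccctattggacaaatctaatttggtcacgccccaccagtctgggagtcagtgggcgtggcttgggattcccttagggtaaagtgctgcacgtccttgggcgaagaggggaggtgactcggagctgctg
Cox7c promoter: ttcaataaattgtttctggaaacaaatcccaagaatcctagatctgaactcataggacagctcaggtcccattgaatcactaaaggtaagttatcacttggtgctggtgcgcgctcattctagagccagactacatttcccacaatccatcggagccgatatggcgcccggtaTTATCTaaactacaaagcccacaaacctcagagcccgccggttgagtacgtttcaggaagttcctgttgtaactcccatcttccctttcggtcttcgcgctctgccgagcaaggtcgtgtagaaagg
Cox6a1 promoter: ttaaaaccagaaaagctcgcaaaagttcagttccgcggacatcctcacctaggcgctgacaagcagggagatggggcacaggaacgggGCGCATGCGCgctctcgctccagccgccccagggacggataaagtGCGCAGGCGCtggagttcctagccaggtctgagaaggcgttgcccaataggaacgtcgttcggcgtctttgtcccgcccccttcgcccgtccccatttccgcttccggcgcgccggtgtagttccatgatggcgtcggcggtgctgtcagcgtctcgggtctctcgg
Uqcrc1 promoter: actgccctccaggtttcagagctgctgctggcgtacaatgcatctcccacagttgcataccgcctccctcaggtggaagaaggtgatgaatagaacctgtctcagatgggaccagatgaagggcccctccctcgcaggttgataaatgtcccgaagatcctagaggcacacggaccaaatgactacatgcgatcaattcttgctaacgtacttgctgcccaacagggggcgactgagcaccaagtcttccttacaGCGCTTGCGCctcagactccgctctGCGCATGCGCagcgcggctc
Counted from the gene start, the matches in Cox7a1 begin at −223 and −177, the match in Cox7c at −77, those in Cox6a1 at −162 and −117, and those in Uqcrc1 at 5 and 30. Cox7a1 and Cox7c, with AGATAA and no NRF-1 motif, differed by 0.57 and 0.71. The Cox7c value is uncertain, as the probe to the transcript similar to Cox7c gave 0.20. Cox6a1 and Uqcrc1, with NRF-1 motifs and without AGATAA, differed by 0.25 and 0.28. The Uqcrc1 window does hold TGATAA, and the Cox7a1 and Cox7c windows hold its reverse complement TTATCA, none of them in capitals. The pairs were chosen with their differences known, so this is no test of the motifs.

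Across the ways of processing the arrays, the distance from all genes held less well for complexes I, II and V than for III and IV. The excess over the all-gene median ranged over all settings tried from 0.03 to 0.15 for complex I, from −0.03 to 0.09 for complex II, from 0.14 to 0.26 for complex III, from 0.10 to 0.21 for complex IV and from 0.01 to 0.13 for complex V. The lowest of each came with no filter on dim probes, where the all-gene median rose to 0.15. With normexp background correction the excess was 0.05 for complexes I and V and 0.00 for complex II. Of 81 genes 77 lay above the all-gene median as reported, 66 with normexp, and 58 of 85 without a filter. Complex II had the lowest median in all settings, and complex III the highest in all but the mean of probes. Scaling on spike-ins or on the median moves every gene by the same amount and could not change this order. The filter for both arrays and keeping flagged spots left every complex median as it was. Changes of membership left the medians of complexes II and III as they were. The order in these settings is therefore no separate support.

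**Figure D5:**
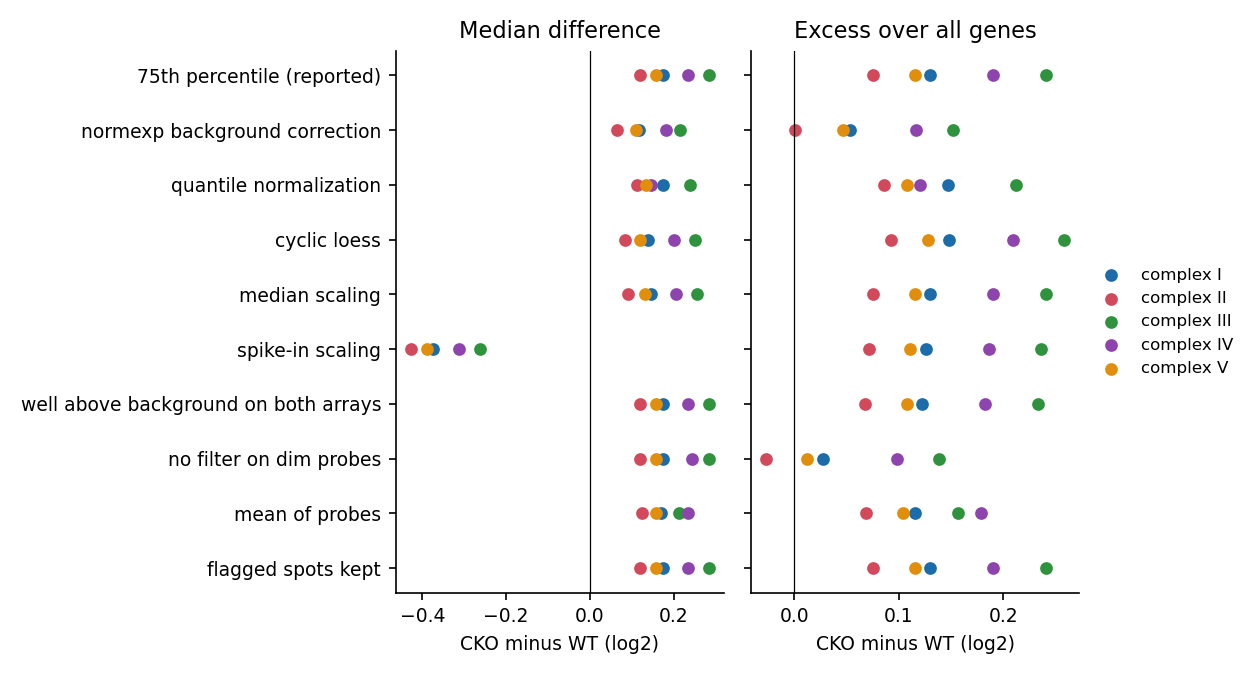
Median difference by complex (left) and its excess over the median of all genes (right), both in log2 on the horizontal axis, under each way of processing the arrays (vertical axis). Points are complexes. Under spike-in scaling all medians lie below 0, from −0.43 to −0.26. The excess is lowest for each complex with no filter on dim probes, down to −0.03 for complex II.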

How the data were processed

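RNA of purified collecting duct cells was measured on 2 single-colour Agilent arrays, 1 per genotype, from 50 ng of RNA each, per the labels' protocols. The deposited files hold the linear intensity of each spot. Per the file headers it was extracted with Agilent Feature Extraction 10.7.3.1, background-subtracted and detrended, with probes placed on mm9 and both arrays on 1 slide and in 1 scan. How the authors normalized between arrays: not given in the sources used here.

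Of 43379 spots that are not controls, outlier flags took out 66 (WT) and 73 (CKO). Of all spots 64.1% and 62.4% were well above background, and 0 were saturated. Log2 of the processed signal was set to the 75th percentile of each array, and spots of 1 probe were averaged. A gene took its brightest probe well above background on at least 1 array. All respiratory chain genes that were measured were so on both arrays. Lists were described by counts and medians beside all genes. The RefSeq accession of 108 of the 116 probes was found in a table of GRCm38.p6, used for names, and 7 probes have another symbol there. The exon part that a probe covers was not analysed here.

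Named genes were, in each complex, the 3 highest and 3 lowest differences, all of complex II, isoform pairs, genes measured on neither array, and up to 3 genes in each direction of other lists. Other members are named so that each complex is described, and they, Ppargc1a, Pkm and LOC100504157 were named after their values were seen. A few genes are not reported here by name. The members and lists were chosen with earlier results of these data known.

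Alternatives were normexp background correction (offset 50), cyclic loess, quantile normalization, scaling on spike-ins or on the median, other filters on dim probes, the mean of probes, keeping flagged spots, and other memberships. Leaving out Cox4nb, leaving out Cox7c and Cox7a1, and adding subunits that the names miss were chosen after seeing the data. The steps were tested on simulated data. The software was limma 3.58.1 in R 4.3.3, and pandas 2.3.3, numpy 2.4.6 and matplotlib 3.10.9 in Python 3.11.15. The number of arrays limits the precision.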

Additional observations from a re-analysis of the deposited data

How the results depend on the processing

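With 1 array per genotype no replicate could be left out. No paired analysis was possible because each genotype has 1 array and no test was made. Spike-in scaling turned the sign of medians: complex I −0.37, complex II −0.43, complex III −0.26, complex IV −0.31, complex V −0.39, all genes −0.50, assembly factors −0.44, mitochondrial DNA genes −0.21, citric acid cycle −0.40, electron carriers −0.48, biogenesis regulators −0.37, import −0.43, glycolysis −0.49, mitochondrial ribosome −0.44 and cytosolic ribosome −0.54. Cox6b2 was then at −0.45, Cox6a2 at −0.75 and Cox7a1 at 0.023. By its construction this scaling moves all genes by the same amount. Cox6a2, a dim probe, was at 0.13 with normexp and at −0.32 with cyclic loess, and mitochondrial DNA genes were at 0.049 with quantile normalization, for which the cause was not tested. In place of 8 members at least 25% higher there were 3 with normexp, where 12.3% of all genes were, 4 with cyclic loess (13.2% of all genes), 5 with median scaling (15.8%) and 0 with spike-in scaling (2.32%), which put 54 of 81 lower by 20% or more, against 74.6% of all genes. With normexp the excess over all genes was 0.05 for complex I, 0.00 for complex II, 0.15 for complex III, 0.12 for complex IV and 0.05 for complex V. Of all genes, 282 were at least 2-fold higher and 538 lower (34.4% higher). These counts were 65 and 204 (24.2%) with normexp, 206 and 642 (24.3%) with cyclic loess, 58 and 1648 (3.40%) with spike-in scaling, and 1214 and 1245 (49.4%) without a filter on dim probes. Without that filter 82 of 85 members were above 0, against 65.7% of all genes, 58 of 85 were above the all-gene median, and Cox8b, not well above background, stood at 1.48. Small differences between complexes lie within what these settings move. Repeated spots of 1 probe differed between the arrays with an SD of 0.03 in the brightest of 5 signal bins and 0.25 in the dimmest.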

Other observations

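The name rule misses some subunits. Ndufab1, the acyl carrier protein of complex I, has 2 probes, which went from 6377 to 5557 in signal (0.13) and from 398 to 366 (0.21). Usmg5, now Atp5md, a small subunit of ATP synthase, went from 19987 to 18424 (0.21), and 2010107E04Rik, now Atp5mpl, another, from 12318 to 12410 (0.34). With them 82 of 84 genes were above 0 (57% of all genes) and 9 were at least 25% higher (17.5% of all genes). The medians of complexes I and V were then 0.17 and 0.17.

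Some members have a dim probe beside a bright one. The other probe of Atp5j2 went from 36.1 to 41.2 (0.52), against 0.18 for the bright probe, and that of Ndufv2 from 50.2 to 46.1 (0.21), against 0.06. The other probes of Ndufs4 (2.42 and 2.32) and Ndufs5 (3.48 and 8.31) were not well above background. The brightest Atp5b probe shares at least 20 bases with a probe named TC1627788, which gave the same difference of 0.14.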
